A study of Homo sapiens with 2 samples.

Results

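Surface markers and transcription factors that are used to recognize stem-like cells were examined in A549 cells in spheroid culture and in monolayer culture. The 10 genes were CD44, CD24, EPCAM, ALCAM and PROM1, which encode surface proteins, and SOX2, NANOG, KLF4, BMI1 and POU5F1, which encode nuclear factors. Every probe set whose platform annotation lists 1 of these symbols, alone or with other genes, was taken. This gave 34 of the 54675 probe sets on the array, for 10 of 21357 annotated gene symbols. A549 is a human lung adenocarcinoma line. Spheroid cells were kept in suspension for 12 days in DMEM/F12 without serum, with EGF at 20 ng/ml, bFGF at 10 ng/ml and N2 supplement, and monolayer cells were kept attached for 12 days in DMEM with 10% FBS. The cultures thus differ in attachment, serum, growth factors, supplement and base medium at once, and these cannot be told apart. Likewise, fewer cells with an RNA cannot be told apart from less of that RNA per cell. RNA of each culture was read on 1 Affymetrix Human U133 plus 2.0 array, so no difference between the cultures has a replicate check and no test was run.

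CD44 is a receptor for hyaluronan and osteopontin that exists in many splice forms, CD24 is a small, heavily glycosylated protein anchored in the membrane, and EPCAM is an adhesion molecule of epithelial cells. ALCAM, also called CD166, mediates cell-cell adhesion, and PROM1, also called CD133, is a protein of membrane protrusions. POU5F1, also called Oct4, works with SOX2 and NANOG in the circuit that keeps embryonic stem cells pluripotent, and KLF4 is used with POU5F1 and SOX2 to reprogram somatic cells. BMI1 is a subunit of Polycomb repressive complex 1, which silences genes through chromatin.

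A probe set is a group of short oligonucleotides whose brightness is combined into 1 signal on a linear scale. Signals of different probe sets are not comparable with each other, so each probe set was compared only between the cultures. The median of each array, 119 in spheroid culture and 108 in monolayer culture, served as a floor, since detection calls were not used here. Ratios are spheroid over monolayer. A ratio with only spheroid culture above the floor is a lower bound, and one with only monolayer culture above it is an upper bound. Since the floors differ, an upper bound can exceed 1 although the signal was lower in spheroid culture. Where neither culture is above the floor the signals are given without a ratio. Of the 34 probe sets, 24 were above the floor in both cultures, 4 in 1 culture and 6 in neither.

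CD44 and SOX2 were the members with higher signals in A549 spheroid culture by at least 1.5-fold, EPCAM, KLF4 and CD24 were higher by less, ALCAM and BMI1 were slightly lower, and PROM1, NANOG and POU5F1 stayed under the floor in both cultures. In all, 12 of the 34 probe sets were at least 1.5-fold higher, 10 of CD44 and 2 of SOX2, beside 9.37% of all 54613 probe sets other than control probe sets. None was at least 1.5-fold lower, beside 6.8%. At least 2-fold higher were 3 probe sets, all of CD44, beside 3.56%, and none was 2-fold lower, beside 2.52%. No member reached 3-fold in either direction, beside 1.05% of all probe sets higher and 0.824% lower. Probe sets of 1 gene read the same RNA and are not replicates, so the counts were also taken with 1 probe set a gene. Then 2 of the 10 genes were at least 1.5-fold higher, beside 11.3% of 19775 genes, and 0 were 1.5-fold lower, beside 9.03%. The limit of 1.5-fold was chosen after the values were seen.

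**Figure D1:**
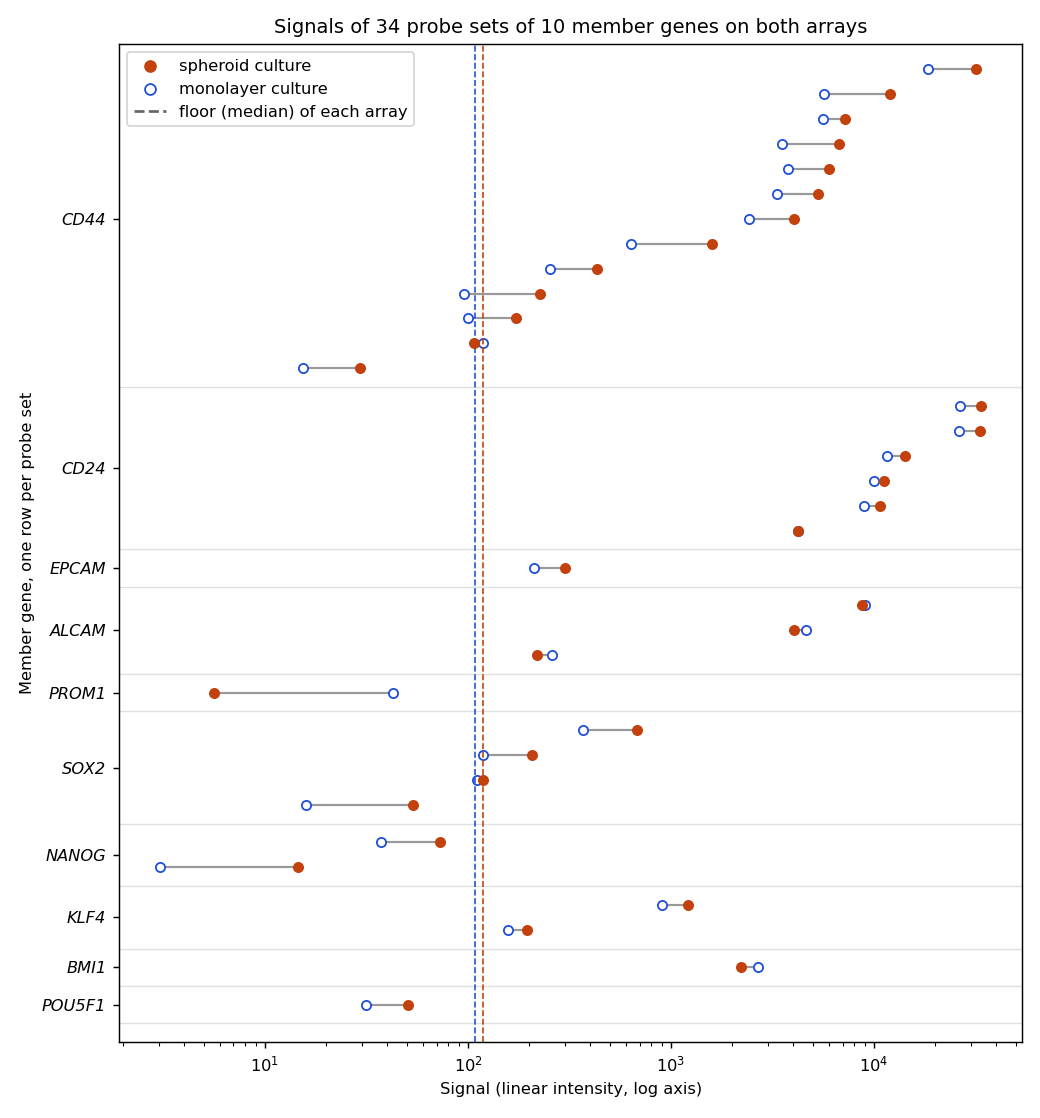
Signal on a log axis for each of the 34 probe sets of the 10 genes, filled points for spheroid culture and open points for monolayer culture, joined by a line, with dashed lines at the floors of 119 and 108. All 9 CD44 probe sets above both floors lie to the right in spheroid culture, and every probe set of PROM1, NANOG and POU5F1 lies under the floors.

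CD44 stood higher in spheroid culture on every probe set above the floor in both cultures. The brightest probe set, 212063_at, had a signal of 31734 in spheroid culture and 18391 in monolayer culture, 1.73-fold higher. Probe set 204489_s_at read 11973 in spheroid culture and 5693 in monolayer culture, 2.10-fold higher. Probe set 217523_at, with signals of 1585 in spheroid and 633 in monolayer culture, had the highest ratio, 2.51-fold. The lowest was that of 209835_x_at, with 7179 in spheroid and 5583 in monolayer culture, 1.29-fold higher. The cultures thus differed in the same direction on bright and dim probe sets alike, by amounts that ranged from 1.29-fold to 2.51-fold over 9 probe sets. Their median was 1.70-fold, and their log2 ratios had a mean of 0.81 and an SD of 0.27. Among the other probe sets, 216056_at was at least 2.09-fold higher with signals of 226 and 95.9 in spheroid and monolayer culture, and 1565868_at was at least 1.60-fold higher with 173 and 99.7. Probe set 234411_x_at, at 107 in spheroid and 119 in monolayer culture, crossed the floor in monolayer alone, and 234418_x_at was under it in both, at 29.3 and 15.4.

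Names of Affymetrix probe sets end in _s_at or _x_at where some probes can match several transcripts. The 3 CD44 probe sets without such an ending had ratios of 1.70-fold to 2.51-fold, the 4 ending in _s_at 1.59-fold to 2.10-fold, and the 2 ending in _x_at 1.29-fold and 1.59-fold. Which exons the probe sets read, and so which splice forms of CD44 the signals came from, was not analysed here. On these arrays 12 genes had 9 or more probe sets above the floor in both cultures. CD44 was 1 of 2 among them with every probe set higher in spheroid culture, and 1 had every probe set lower. The SD of log2 ratios over the probe sets of a gene had a median of 0.38 over the 12 genes, with quartiles of 0.30 and 0.51, and that of CD44 was 0.27. In the distribution of log2 ratios of all 24645 probe sets above both floors, which had a median of 0.04 and a robust SD of 0.53, the 9 CD44 values lay between percentiles 72.9 and 97.2. Ratios of this size were thus found for many other probe sets.

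**Figure D2:**
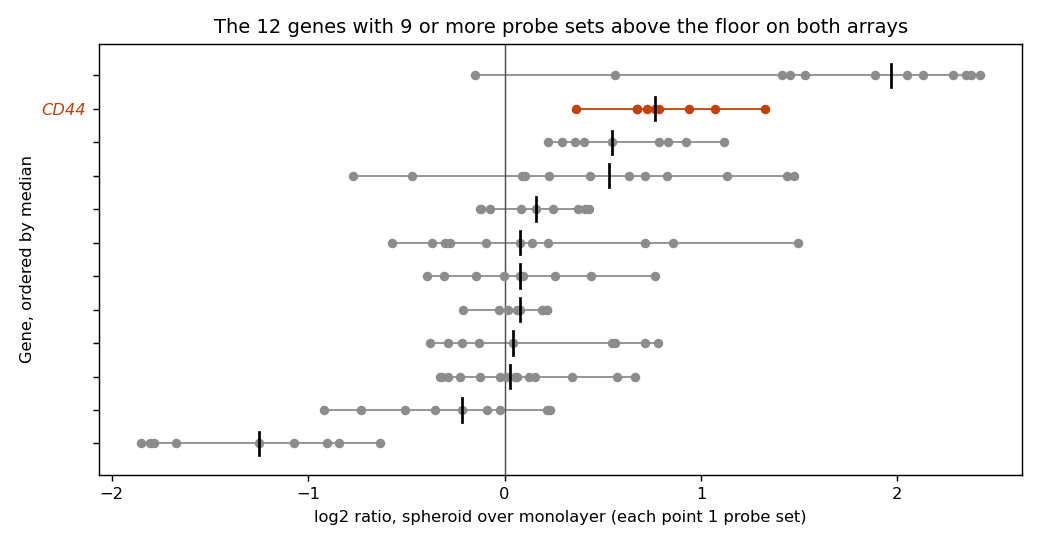
Spheroid over monolayer signal as log2 ratio for each probe set of the 12 genes with 9 or more probe sets above the floor in both cultures, each row 1 gene, each point 1 probe set and each black bar the median of the gene. The 9 points of CD44 run from 0.36 to 1.32 with a median of 0.77, all to the right of 0.

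CD24 was close to equal in the cultures, with bright signals in both. Probe set 216379_x_at had a signal of 33751 in spheroid culture and 26386 in monolayer culture, 1.28-fold higher, and 209771_x_at had 33233 and 26250, 1.27-fold higher. Of its 6 probe sets, all above the floor, 5 were higher in spheroid culture and 1, 209772_s_at, was level with 4221 in spheroid and 4236 in monolayer culture. The median was 1.21-fold, the log2 ratios had a mean of 0.24 and an SD of 0.14, and none reached 1.5-fold. All 6 names end in _s_at or _x_at, and CD24 has processed pseudogenes whose RNA could bind such probes, so the signals may not come from CD24 alone. The CD44-high, CD24-low pattern is a common definition of stem-like cells in breast epithelium. Here the median log2 ratio was 0.77 for CD44 and 0.28 for CD24, a difference of 0.49 or 1.40-fold in CD44 relative to CD24. The CD44 value was the higher in each of the 54 pairs of a CD44 and a CD24 probe set, which are not replicates. The margin was narrow, with a lowest CD44 value of 0.363 and a highest CD24 value of 0.355. With quantile normalization not every pair kept this order: the lowest CD44 value was 0.43 and the brightest CD24 probe set had 0.50. A common scaling factor of an array cancels in the difference of medians, which has no test.

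EPCAM was read by a single probe set, 201839_s_at, which had a low signal of 302 in spheroid culture and 213 in monolayer culture, 1.42-fold higher. ALCAM had signals of 8755 in spheroid and 9044 in monolayer culture on its brightest probe set, 201952_at, a ratio of 0.968. Its other probe sets, 201951_at with 4034 in spheroid and 4614 in monolayer culture and 1569362_at with 218 and 258, had ratios of 0.874 and 0.845, so that all 3 were slightly lower in spheroid culture. With quantile normalization 1 of the 3 ALCAM probe sets was higher in spheroid culture, and 209772_s_at of CD24 was higher too. PROM1 had a signal of 5.58 in spheroid culture and 42.7 in monolayer culture on its only probe set, both under the floor. RNA signals of the surface markers thus ranged from clearly measured and higher (CD44) through measured and nearly level (CD24, ALCAM) to not above the floor (PROM1). For protein, the paper reports no increase of CD133 and CD44 in spheroid culture by flow cytometry. Its Western blots showed more Oct4, Nanog and Sox2 there.

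SOX2 was the only pluripotency factor at least 1.5-fold higher in spheroid culture. Probe set 228038_at had a signal of 677 in spheroid culture and 371 in monolayer culture, 1.83-fold higher, and 213721_at had 207 and 118, 1.75-fold higher. Probe set 214178_s_at, at 118 in spheroid and 111 in monolayer culture, was above the floor in monolayer alone, and 213722_at was under it at 53.5 and 16.0. All 4 SOX2 signals were higher in spheroid culture, but on 3 of the 4 probe sets at least 1 culture was at or near the floor. With the floor raised to the 75th percentile of each array, the brightest probe set of SOX2 fell below it in monolayer culture. Its log2 ratio, 0.87 before, was then known only as at least 0.50. As a geometric mean over its probe sets the log2 ratio of SOX2 was 0.48. That mean includes 213722_at, whose log2 ratio of 0.14 came from the floors alone.

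KLF4 was higher by a smaller amount, with signals of 1216 in spheroid and 905 in monolayer culture on 221841_s_at, 1.34-fold, and 196 and 157 on 220266_s_at, 1.25-fold. The median log2 ratio was 0.84 for SOX2 and 0.37 for KLF4. BMI1 was slightly lower, with 2206 in spheroid culture and 2695 in monolayer culture, a ratio of 0.818. Its probe set, 202265_at, is annotated both with BMI1 and with COMMD3-BMI1, a readthrough transcript that spans the neighbouring gene. NANOG had signals of 73.2 in spheroid and 37.4 in monolayer culture on 220184_at, and of 14.6 and 3.04 on 231079_at, all under the floor. POU5F1 was read by 1 shared probe set, 208286_x_at, whose annotation also lists POU5F1B, POU5F1P3 and POU5F1P4, which are retrocopies of the gene. It had 50.9 in spheroid culture and 31.3 in monolayer culture, under the floor in both. NANOG, too, has processed pseudogenes with near-identical sequence.

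**Figure D3:**
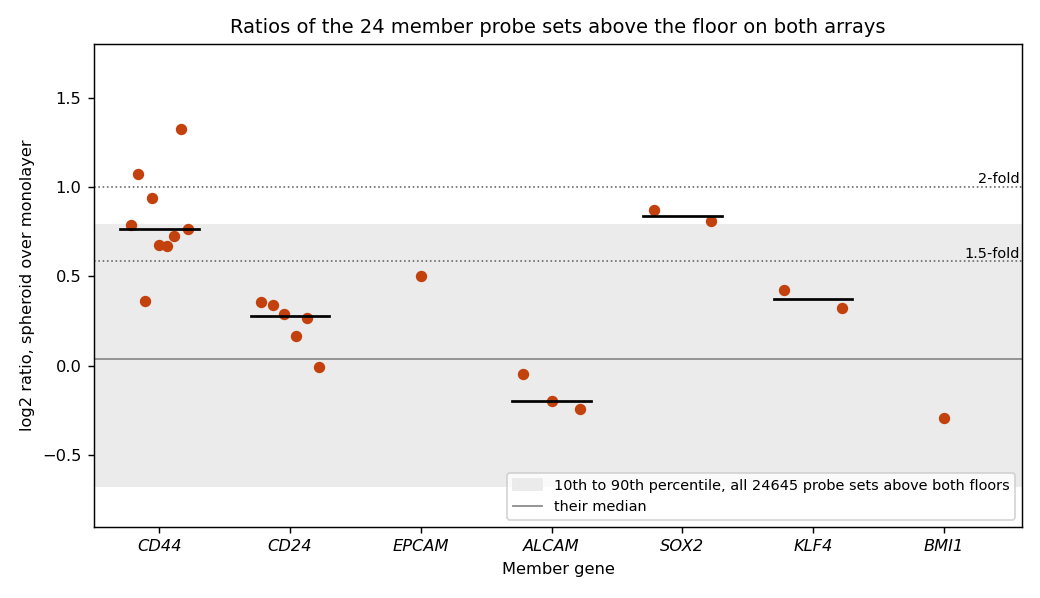
Spheroid over monolayer signal as log2 ratio for the 24 member probe sets above the floor in both cultures, each point 1 probe set and each black bar the median of a gene with several, with the grey band from the 10th to the 90th percentile (-0.67 to 0.79) of all 24645 such probe sets, a grey line at their median of 0.04 and dotted lines at 1.5-fold and 2-fold. CD44 and SOX2 have their medians above 1.5-fold, at 0.77 and 0.84, and the other genes have every point below it.

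Of the 24 member probe sets above both floors, 19 were higher in spheroid culture and 5 were lower, and 53.1% of all such probe sets were higher. At least 1.5-fold higher were 10 of the 24, beside 16.4% of all. Probe sets of 1 gene are not replicates, and few genes made up these counts. Of the 19 higher, 9 were of CD44 and 5 of CD24, and of the 10 past 1.5-fold, 8 were of CD44. After division of each array by its median, with which the median log2 ratio of all these probe sets was -0.10 in place of 0.04, the members still divided into 19 higher and 5 lower, with 8 at least 1.5-fold higher. With quantile normalization they divided into 21 and 3.

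The start regions of SOX2 and NANOG are shown as the member windows that hold the octamer core, a sequence that POU factors bind. That of CD44 is shown because CD44 and SOX2 were the members at least 1.5-fold higher. RefSeq windows from 250 bases before to 50 bases after the start of the gene were at hand for 8 of the 10 members, all but EPCAM and POU5F1. They lie in build GRCh38.p14 at chr3:181711675-181711974 for SOX2, chr12:7789152-7789451 for NANOG and chr11:35138921-35139220 for CD44, all on the + strand. Capitals mark the octamer core ATGCAAA in SOX2, the octamer core and the SOX-type core ACAATG in NANOG, and the GC box GGGCGG in CD44, on either strand.
SOX2: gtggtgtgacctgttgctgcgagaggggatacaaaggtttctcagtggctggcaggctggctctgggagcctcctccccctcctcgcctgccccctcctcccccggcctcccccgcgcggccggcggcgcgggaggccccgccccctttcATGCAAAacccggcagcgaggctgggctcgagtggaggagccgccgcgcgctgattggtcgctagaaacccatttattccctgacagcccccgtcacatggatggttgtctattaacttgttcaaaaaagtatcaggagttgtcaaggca
NANOG: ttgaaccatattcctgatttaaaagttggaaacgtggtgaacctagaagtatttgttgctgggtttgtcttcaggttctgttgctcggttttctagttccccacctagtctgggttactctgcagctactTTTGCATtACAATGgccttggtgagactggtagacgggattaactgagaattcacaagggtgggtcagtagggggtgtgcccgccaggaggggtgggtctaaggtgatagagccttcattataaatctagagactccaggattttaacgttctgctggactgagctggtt
CD44: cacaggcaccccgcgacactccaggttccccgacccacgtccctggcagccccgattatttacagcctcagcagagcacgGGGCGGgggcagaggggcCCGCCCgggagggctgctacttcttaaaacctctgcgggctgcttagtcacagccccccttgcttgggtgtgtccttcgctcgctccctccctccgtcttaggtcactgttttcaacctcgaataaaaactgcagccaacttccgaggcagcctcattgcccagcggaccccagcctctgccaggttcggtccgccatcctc
The octamer core was found on either strand in 2 of the 14 windows of the members, those of SOX2 and NANOG, and in 4.46% of all 35116 windows. It began 100 bases before the start in SOX2 and 120 bases before it in NANOG. In NANOG the SOX-type core followed after 1 base, and this core was found in no other member window and in 10.8% of all windows. The GC box, bound by SP and KLF factors, was found in 10 of the 14 windows, against 45.0% of all. Some members have several windows, so this is not a share of genes. The box stood in windows of CD44, SOX2, KLF4 and CD24 as well as of ALCAM and BMI1, which were lower in spheroid culture. It also stood in windows of PROM1, which was under the floor. The windows of SOX2 and NANOG thus share the octamer core, while SOX2 was above the floor and NANOG was not. A match of letters is a description of the window and does not show binding.

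Relatives and partners of the members went in different directions, with a few genes far apart between the cultures. They were taken from 9 lists, chosen with earlier results of these data known, with each gene read from its brightest probe set. Over all 19775 genes, 4.59% were at least 2-fold higher in spheroid culture and 3.68% at least 2-fold lower, and the median log2 ratio of the 13229 genes above the floor in either culture was 0.04. Division of each array by its median lowers every such log2 ratio by 0.14.

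Other surface markers of stem-like cells stood on both sides. Among 25 measured genes, 3 were past 2-fold on the higher side and 2 on the lower side, 11 differed by less and 9 did not pass the floor in either culture. The median log2 ratio was -0.08. LGR6, an R-spondin receptor, had signals of 940 in spheroid and 192 in monolayer culture, 4.90-fold higher. Its log2 ratio was at least 0.98 with the floor at the 75th percentile. NT5E, the ecto-nucleotidase CD73, had 2708 and 603, 4.49-fold higher on its brightest probe set, with all 3 higher. L1CAM, a neural adhesion molecule, was 2.74-fold higher, with 429 and 157, although it did not pass a floor at the 75th percentile. Its log2 ratio was 0.80 as a geometric mean over its probe sets, of which 1 of 2 was above the floor. On the other side, ABCG2, the efflux pump behind the side population, had 538 in spheroid culture and 3242 in monolayer culture, 6.02-fold lower. CD55, an inhibitor of complement, was 2.93-fold lower, with 3229 and 9457.

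Among other genes of the pluripotency network, none was at least 2-fold higher. There were 25 measured genes, of which 3 were past 2-fold on the lower side, 9 differed by less and 13 did not pass the floor. The median log2 ratio was -0.05. DNMT3B, a de novo DNA methyltransferase, had signals of 133 in spheroid culture and 1003 in monolayer culture, 7.56-fold lower. Its log2 ratio of -2.92 was at most -1.03 with a floor at the 75th percentile. MYC, used with the other factors in reprogramming, was 3.03-fold lower, with 2342 and 7084. NR5A2, a nuclear receptor, was 2.01-fold lower, with 1328 and 2672, but 1 of its 4 probe sets above the floor was higher, and its log2 ratio was -0.76 with the geometric mean and -0.996 with quantile normalization.

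SOX9 stood out in the family of SOX2. It encodes a factor of lung epithelial progenitors and of cartilage, and it had signals of 3989 in spheroid culture and 785 in monolayer culture, 5.08-fold higher, with both of its probe sets higher. SOX8, of the same subgroup as SOX9, was at least 4.03-fold higher, with 436 and 41.6. SOX12 was 2.19-fold lower, with 570 and 1246. Of 18 measured SOX genes other than SOX2, these were the 2 higher and the 1 lower by 2-fold, while 6 differed by less, 9 did not pass the floor, and the median log2 ratio was 0.26. The log2 ratio of SOX12 was -0.93 as a geometric mean over its probe sets, and SOX8 was under the floor at the 75th percentile in both cultures.

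In the family of KLF4, 2 of 16 genes were past 2-fold on the lower side and none on the higher side, 9 differed by less and 5 did not pass the floor. The median log2 ratio was -0.11. KLF9, a target of steroid hormone receptors, was at least 4.90-fold lower, with 87.0 in spheroid culture and 584 in monolayer culture, but 1 of its 3 probe sets above the floor was higher and its log2 ratio was -0.69 with the geometric mean. KLF16 was 3.08-fold lower, with 177 and 545. At the floor of the 75th percentile these log2 ratios were at most -0.25 and -0.15. Of 12 measured POU genes other than POU5F1, 10 were under the floor in both cultures and none reached 2-fold.

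Polycomb genes were well measured, with all 28 measured genes above the floor in both cultures, like BMI1. None was past 2-fold on the higher side, 2 were on the lower side and 26 differed by less, with a median log2 ratio of -0.20. By any amount, 18 of the 28 were lower, beside 6249 of the 13229 genes above the floor in either culture. EZH2, the methyltransferase of Polycomb repressive complex 2, had signals of 262 in spheroid culture and 1257 in monolayer culture, 4.79-fold lower. Its log2 ratio of -2.26 was at most -1.36 with a floor at the 75th percentile. PHF19, an accessory subunit of the same complex, was 2.24-fold lower, with 975 and 2180 and all 3 probe sets lower, and its log2 ratio was -0.90 with the geometric mean.

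Partners of CD44 stood on both sides, some by wide margins. CEMIP, which takes part in breakdown of hyaluronan, had signals of 1158 in spheroid culture and 117 in monolayer culture, 9.93-fold higher. Its log2 ratio of 3.31 was at least 1.28 with a floor at the 75th percentile. It was 1.73 as a geometric mean, with 1 of its 2 probe sets above the floor. SPP1, which encodes the CD44 ligand osteopontin, was 3.42-fold higher, with 34197 and 10005, and VCAN, which encodes the hyaluronan-binding proteoglycan versican, was 2.69-fold higher, with 3835 and 1424 and all 5 probe sets higher. MMP14, a membrane protease that cleaves CD44, was 2.08-fold higher, with 344 and 165, and 1 of its 4 probe sets was above the floor. Its log2 ratio was 0.92 after division by the array medians and 0.95 after quantile normalization. It was 0.37 with the geometric mean, which includes the probe sets under the floor. MMP14 did not pass a floor at the 75th percentile. HMMR, another hyaluronan receptor and a spindle protein of dividing cells, had 321 in spheroid culture and 5152 in monolayer culture, 16.0-fold lower. Its log2 ratio of -4.00 was at most -3.39 with a floor at the 75th percentile. CD44 and HMMR thus differed between the cultures in opposite directions. This list had 17 measured genes, of which 4 were past 2-fold on the higher side and 1 on the lower side, 10 differed by less and 2 did not pass the floor. The median log2 ratio was -0.06. ESRP1, a splicing factor that promotes the variant exons of CD44 in epithelial cells, was under the floor with 35.9 and 30.3 in spheroid and monolayer culture. It was named after its values were seen, as were KRT7, NKX2-1, PTPRC and PECAM1.

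Of 15 measured EPCAM partners and genes of its cleavage, 2 were past 2-fold on the higher side and none on the lower, 10 differed by less and 3 did not pass the floor. The median log2 ratio was 0.37. TSPAN8, a tetraspanin that forms complexes with EPCAM, was at least 7.73-fold higher, with 837 in spheroid culture and 48.7 in monolayer culture, and SPINT2, an inhibitor of serine proteases, was 2.19-fold higher, with 10187 and 4653. At the floor of the 75th percentile the log2 ratio of TSPAN8 was at least 0.81, and that of SPINT2 was 0.99 after division by the array medians. None of the 4 ligands of CD24 and ALCAM reached 2-fold.

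**Figure D4:**
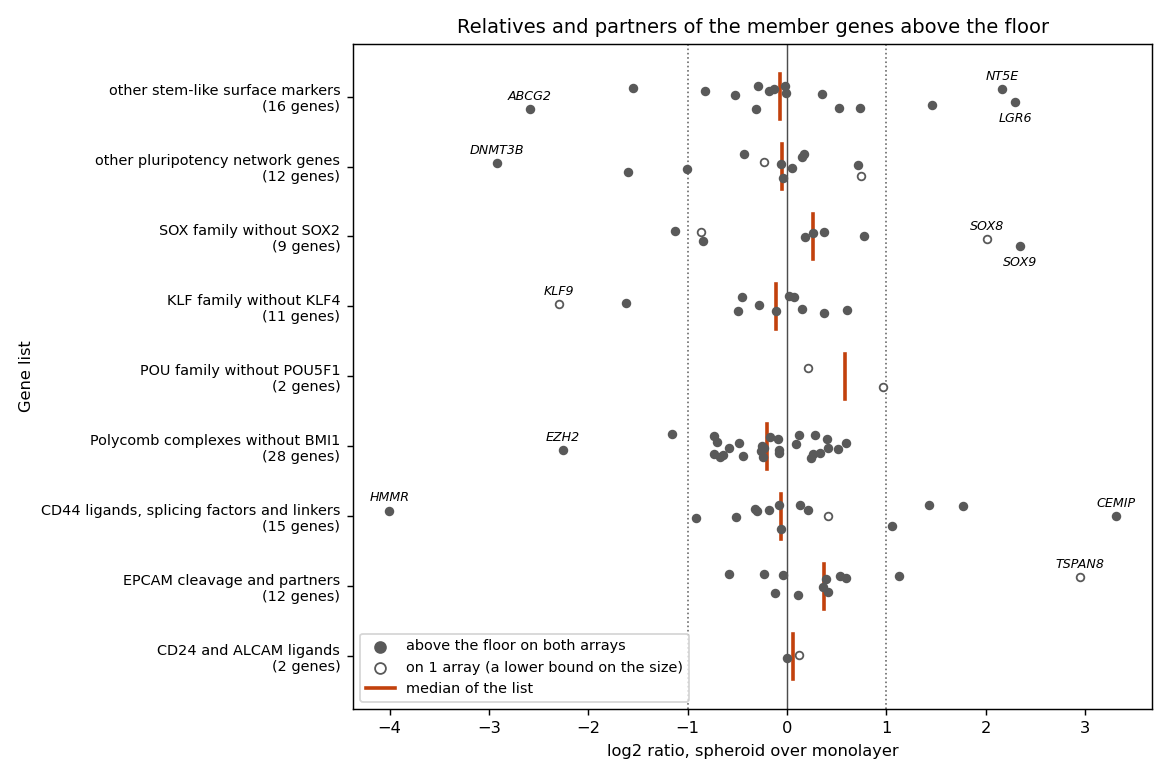
Spheroid over monolayer signal as log2 ratio for each gene of the 9 lists that was above the floor in at least 1 culture, filled points for genes above it in both and open points for genes above it in 1, with the median of each list as a bar and dotted lines at 2-fold. Genes past 4-fold are named, with HMMR farthest to the left at -4.00 and CEMIP farthest to the right at 3.31.

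The arrays and the label were checked with values over all probe sets. Of 8 epithelial marker genes, 6 were above the floor, with a summed signal of 70291 in spheroid culture and 104701 in monolayer culture, and a median log2 ratio of -0.32. Of these 6 genes 4 were lower, among them KRT7, 3.75-fold, although without names ending in _s_at or _x_at its log2 ratio was -0.11, and 2 were higher, among them MUC1, 4.73-fold. Of 7 measured alveolar type II markers, 2 were under the floor in both cultures, among them NKX2-1, a defining factor of that cell type, and the sums were 1999.7 and 1198.5. Of the other 5 genes, 4 were higher in spheroid culture, 2 of them at least 2-fold, and 1 was lower, with a median log2 ratio of 0.57. Fibroblast, endothelial and leukocyte markers were under the floor in both cultures for 7 of 9, 5 of 6 and 2 of 4 genes, among them PTPRC, which defines leukocytes, and PECAM1 of endothelium had 474.9 in spheroid and 269.8 in monolayer culture. Their summed signals were 1173, 668 and 332 in spheroid culture and 1433, 387 and 689 in monolayer culture. On the brightest probe set of each gene, CD14 alone of these genes passed 3-fold, at least 3.66-fold lower. PECAM1 was 1.76-fold higher on that basis, and 2 of its 5 probe sets were above the floor, each higher. The paper lists PECAM1 with a far larger fold. Of 13 hepatocyte markers, 5 were at least 2-fold higher, with sums of 17709 and 5091, and ALB was at least 42.9-fold higher, with a log2 ratio of 5.42 that was 2.67 as a geometric mean over its probe sets. A hepatoma line and a compound are named in the free description that the submitters gave both samples, while titles, cell line and methods name A549 and its media. The part of these differences in the members' ratios was not tested. The ratio of 3′ over 5′ control probe sets, a measure of RNA integrity, was 1.15 in spheroid and 1.09 in monolayer culture for GAPDH and 1.99 and 1.55 for ACTB.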

How the data were processed

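Total RNA of A549 cells in spheroid and in monolayer culture was isolated with TRIzol and hybridised to Affymetrix Human U133 plus 2.0 arrays, 1 for each culture. The deposited values are linear signal intensities. MAS5 and GCOS are named in the submitters' processing notes, with no version given in the sources used here, and the study's methods name GeneSpring GX for the later analysis. The authors had scaled the arrays: trimmed means, leaving out 2% at either end, were 499.9 on both. No further scaling was applied. The floor of each array was its median with 62 control probe sets left out. Lower signals were set to it before log2 ratios, spheroid over monolayer, were taken without a test. Gene names came from the platform annotation, with 41043 symbols of single genes updated through RefSeq. Where 1 value a gene is given, it is that of the brightest probe set by mean log2 signal among those annotated with that gene alone, or, for POU5F1 and BMI1, of the shared probe set. The members and lists were chosen with earlier results of these data known. Every member was named, and of each list up to 4 genes per direction past 2-fold, and of a marker list the gene with the largest ratio past 3-fold. KRT7, NKX2-1, PTPRC, PECAM1 and ESRP1 were named beside this rule. Alternatives were no floor, floors at the 25th and 75th percentiles, division of each array by its median, quantile normalization, other choices of probe sets and geometric means over the probe sets of a gene. The geometric means were taken of floored signals and include probe sets under the floor in both cultures, whose log2 ratio is then 0.14. The steps were tested on simulated data, in which only bright probe sets were changed, by a larger fold than any member with a ratio. The simulation thus does not cover small ratios or signals near the floor. Python 3.11.15, numpy 2.4.6, pandas 2.3.3 and matplotlib 3.10.9 were used. Precision is limited by the number of arrays.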

Additional observations from a re-analysis of the deposited data

How the results depend on the processing

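Each of the 7 members with a ratio (CD44, CD24, EPCAM, ALCAM, SOX2, KLF4 and BMI1) moved by less than 0.50 on the log2 scale, the SD between the 2 brightest probe sets of 5453 genes, under the alternatives that gave it a value, and 44 of 45 values kept their sign. The exception was ALCAM, which was -0.05 and became 0.0043. The floor alternatives read most members from the same probe set above the floor, so many of these values could not change. That of CD44, for example, was 0.79 at every floor. CD44 ran from 0.65 to 0.94. SOX2 ran from 0.48, a geometric mean that includes a probe set under the floor in both cultures, to 0.87. EPCAM had no value with the floor at the 75th percentile, nor did CD24, EPCAM and KLF4 once names ending in _s_at or _x_at were left out. Counts moved more. The 12 member probe sets at least 1.5-fold higher were 7 with the floor at the 75th percentile and 7 once those names were left out. The 3 at least 2-fold higher were 5 with no floor and 1 after division by the array medians. With no floor, 2 were at least 3-fold higher (1 of NANOG and 1 of SOX2, both under the median in both cultures), and 1, that of PROM1, was at least 1.5-fold, 2-fold and 3-fold lower. NANOG had a log2 ratio of 0.97, POU5F1 of 0.52 and PROM1 of -0.11 with a floor at the 25th percentile, so the 3 members without a ratio depend on where the floor is set. The 22 relatives and partners past 2-fold kept their direction wherever they had a value, which floors and scaling could hardly change for ratios of that size. With the floor at the 75th percentile 15 of the 22 stayed past 2-fold and 3 had no value. After division by the array medians 20 did, and with geometric means 16. Once names ending in _s_at or _x_at were left out, 11 did and 10 had no value. No paired analysis was possible because each culture has 1 array, and no array could be left out.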
